A study of Mus musculus with 2 samples.

Results

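The Smad genes with Skil and Tgif1 are 10 genes that carry and restrain signals of the TGF-beta family, and their Arid1b chromatin was described from 1 deposited peak list. The genes are the 8 Smad genes of the mouse (Smad1 to Smad7 and Smad9) and the repressor genes Skil and Tgif1. They were chosen by name, with earlier results of these data known. Each was given every Arid1b peak that touched it or its 10 kb of flanks on either side, by the coordinates of a RefSeq gene table. This took in 25 of the 8318 peaks of the list, at 7 of the 10 genes. The reference was all 21883 protein-coding genes on the autosomes, X and Y.

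The peaks come from ChIP-seq, in which chromatin is precipitated with an antibody and its DNA sequenced. The antibody was against Arid1b, a DNA-binding subunit of the BAF complex, which moves nucleosomes. The cells were primary cultures of dental mesenchyme. They were taken from the apical end of the lower first molars of wild-type C57BL/6 mice at postnatal day 3.5 to 7.5 and cultured with 10% serum. The 2 libraries, 1 per group, were an Arid1b ChIP and an input made with no antibody, from cells of the same kind with no treatment or mutant allele named. The series' title and design text concern Arid1a and its conditional knockout, but no library of such cells was analysed here. No replicates exist for either group, so no difference was tested and every value describes these libraries. The number of animals behind the cells, and whether they were pooled, is not stated in the labels.

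Ligands of the TGF-beta family bind receptor kinases that phosphorylate the receptor-regulated Smads, Smad2 and Smad3 for TGF-beta and activin and Smad1, Smad5 and Smad9 for BMPs. These bind the common Smad, Smad4, and enter the nucleus to act on target genes. Smad6 and Smad7 are inhibitory Smads that block the receptors and their Smads, and both are themselves classic targets of the pathway, which makes them feedback inhibitors. Skil (SnoN) binds Smad complexes and represses their targets, and Tgif1 is a homeodomain protein that recruits corepressors to Smad complexes. In teeth, BMP and TGF-beta signals pass between epithelium and mesenchyme during crown and root formation.

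Arid1b peaks were unevenly spread over the 4 classes. The inhibitory Smad genes and the repressor genes held 21 of the 25 peaks, with 7 at Smad7, 7 at Tgif1, 4 at Smad6 and 3 at Skil. The 5 receptor-regulated Smad genes held the other 4 peaks, 2 at Smad3, 1 at Smad1 and 1 at Smad2, with 0 at Smad5 and Smad9. The common Smad gene, Smad4, had 0. All 4 inhibitory and repressor genes therefore had a peak, as did 3 of the 5 receptor-regulated genes. Of all protein-coding genes 31.7% had one. At least 2 peaks were present at 5 of the 10 genes and at 11.3% of all genes, and at least 4 at 3 of the 10 and at 2.39% of all. The classes hold between 1 and 5 genes, and a difference between them was not tested.

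**Figure D1:**
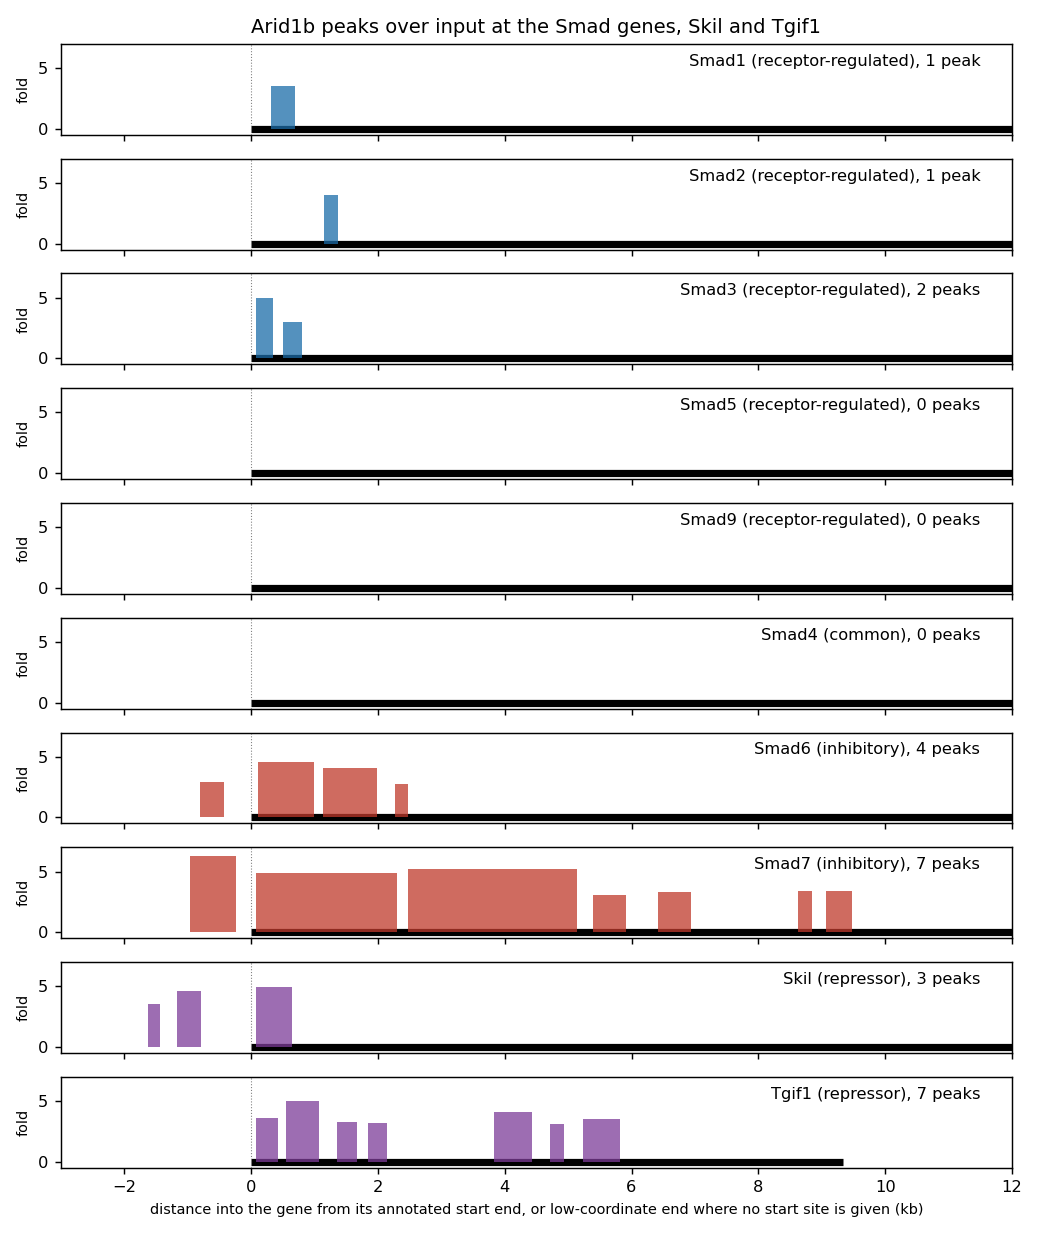
Peaks at each of the 10 genes: the horizontal axis is the distance in kb into the gene from its annotated start end (for Smad2, Smad4, Smad7 and Skil, for which no start site was given, from the low-coordinate end), the black line is the gene as far as 12 kb, and each block is 1 peak, as wide as the peak and as high as the authors' fold over input at its summit. Smad7 and Tgif1 have 7 blocks each, and the rows of Smad5, Smad9 and Smad4 are empty.

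The number of peaks did not rise with gene length among the 10 genes, and a link with length was not tested. Smad6 and Smad4 are of nearly equal length, 69.01 and 69.00 kb, and Smad2 is 70.7 kb long, yet they had 4, 0 and 1 peaks. The longest member, Smad3 at 111 kb, had 2 peaks, whereas the shortest, Tgif1 at 9.33 kb, had 7. Per 10 kb of gene and flanks, the peaks numbered 2.39 at Tgif1, 1.44 at Smad7, 0.627 at Skil and 0.449 at Smad6. The values were 0.152 at Smad3, 0.123 at Smad1 and 0.11 at Smad2. Over all protein-coding genes, most of which had no peak, summed peaks over summed window length gave 0.0783. Pooled in the same way, the 5 receptor-regulated genes gave 0.0933, and 0.0773 with Smad4 added. The 4 inhibitory and repressor genes pooled gave 0.978. For a given number of peaks, the number per 10 kb falls as the gene gets longer, so it favours short genes. Among genes of 60 to 80 kb, 42.0% had at least 1 peak and 2.44% had at least 4.

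Peaks close together make up much of these numbers. Once intervals closer than 500 bp were merged, Smad7 had 3 regions, Smad6, Skil and Tgif1 had 2 each, and Smad1, Smad2 and Smad3 had 1 each. Of all protein-coding genes, 7.80% had at least 2 such regions and 2.05% had at least 3. Merged regions thus left the inhibitory and repressor genes with 9 of 12, against 3 at the receptor-regulated genes.

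**Figure D2:**
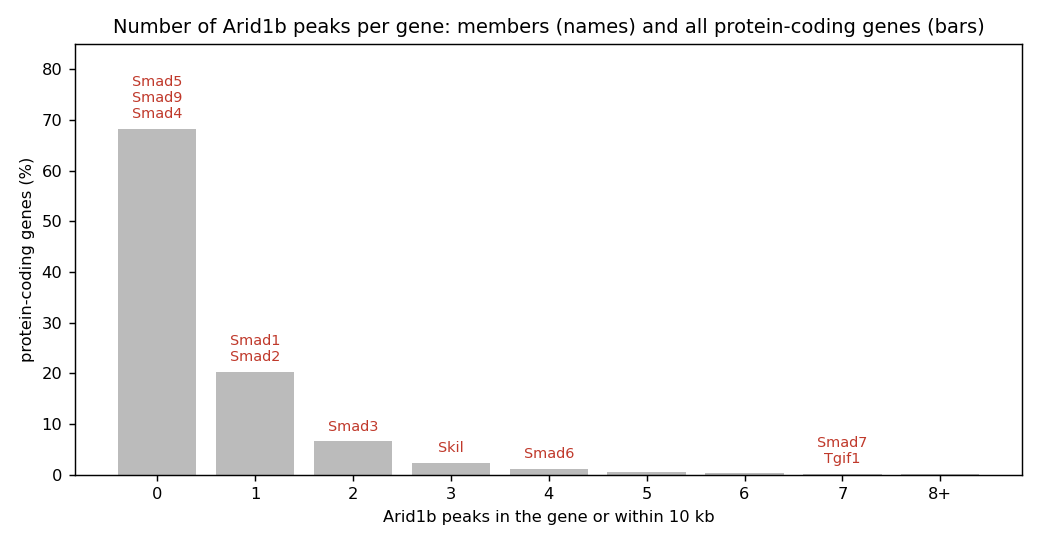
Number of Arid1b peaks per gene with 10 kb of flanks: the names mark the 10 genes, and the bars give the percentage of all 21883 protein-coding genes with that number. Smad7 and Tgif1 stand at 7 peaks, a number that 0.452% of all genes reached or passed.

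Smad7 carried the strongest and the widest signal of the 10 genes. Its gene is at chr18:75367365-75395935 (mm10), and its first peak, at chr18:75366403-75367123, ended 242 bp outside the low-coordinate end. That peak had a fold over input of 6.30 (exact Poisson 95% interval 4.83 to 8.08) from a pileup of 60 fragments over an expected 8.68, and was 238th of the 8318 peaks by fold. A peak as strong was present at 1.71% of protein-coding genes with their 10 kb flanks. Fold here is the authors' value at the peak's summit, and the interval reflects only the counting error of its pileup.

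Inside Smad7, 2 wide peaks followed directly. The peak at chr18:75367448-75369672 was 2225 bp wide with a fold of 4.91 (3.76 to 6.29). The next, at chr18:75369844-75372506, was 2663 bp wide with a fold of 5.22 (3.93 to 6.82). They were 67th and 35th of the list by width, against a median width of 307 bp for all peaks. Beyond them lay 4 narrower peaks with folds of 3.10, 3.30, 3.41 and 3.41. The interval of the first Smad7 peak lay above those of these 4 and overlapped those of the wide peaks. Together the 7 peaks covered 7.26 kb of a run of 10.4 kb, and the last 19.1 kb of the gene had none. A long noncoding RNA gene, Gm20544, ends at position 75367088 inside the first peak, so that peak lies at the ends of both genes. The wide peak at chr18:75367448-75369672 also lay within 1 kb of Gm20544. This neighbour was named after its values were seen. Of all protein-coding genes, 0.452% had at least 7 peaks, and of genes up to 30 kb long, like Smad7 and Tgif1, 0.508%.

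Smad6, the inhibitory Smad best known for restraining BMP signals, had 4 peaks in a run of 3.28 kb. The gene lies on the minus strand at chr9:63953076-64022085, and its strongest peak, at chr9:64021098-64021968, had its summit 275 bp downstream of the start site and a fold of 4.53 (3.35 to 5.99). A neighbouring peak 1647 bp downstream reached 4.08 (3.12 to 5.24). The other 2 were weak, 2.73 (1.91 to 3.81) at 2370 bp downstream and 2.93 (2.02 to 4.13) upstream, at position -636 from the start site. The expected input level at all 4 Smad6 peaks was above the genome background of 8.68, between 9.60 and 13.7 fragments. The remaining 66.5 kb of the gene had no peak.

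Among the receptor-regulated Smads, Smad3 had the strongest peak. Smad3 is on the minus strand at chr9:63646766-63757994, and its peak at chr9:63757646-63757916 had a fold of 4.95 (3.67 to 6.55) with its summit 207 bp downstream of the start site. A second Smad3 peak, 642 bp downstream, had a fold of 2.99, the lowest of the class. Smad2, the other Smad of TGF-beta and activin receptors, had 1 peak at chr18:76242235-76242461 with a fold of 4.03 (2.88 to 5.49), 1235 bp inside the low-coordinate end of the gene. Of the BMP Smads, Smad1 had 1 peak at chr8:79398741-79399119, 546 bp downstream of its start site, with a fold of 3.51 (2.45 to 4.89). The peaks of these 3 genes were between 227 and 379 bp wide, around the list median of 307 bp.

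Smad5, Smad9 and Smad4 had no peak within these bounds, to different degrees. The nearest peak to Smad9 lay 19.7 kb away with a fold of 3.67, between the ends of Exosc8 and Alg5. The nearest to Smad4 lay 60.7 kb away and the nearest to Smad5 444 kb away. A gene absent from a thresholded list may still hold signal below the threshold, so this does not show that Arid1b was absent there.

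The repressor genes had peaks on both sides of the gene's end at Skil and from the start of the gene to 5.81 kb into it at Tgif1, whose last 3.51 kb had none. Skil, at chr3:31095058-31122923, had a peak of 4.93 (3.67 to 6.48) just inside its low-coordinate end, at chr3:31095134-31095702. A second peak of 4.65 (3.40 to 6.20) ended 796 bp outside that end and another of 3.51 (2.45 to 4.89) ended 1431 bp outside it. Tgif1 is on the minus strand at chr17:70844205-70853532, and its 7 peaks all lay inside the gene. The strongest, at chr17:70852463-70852981, had a fold of 5.03 (3.76 to 6.60) and a summit 689 bp downstream of the outermost start site. The next by fold was 4.13 (2.97 to 5.61), and the other 5 were between 3.11 and 3.61. Tgif1 peaks covered 2.89 kb of a run of 5.74 kb, with the largest gap, 1688 bp, between the fourth and the fifth peak from the start. A long noncoding RNA gene, Gm36856, begins at position 70853540, close to the Tgif1 end at 70853532. The strongest Tgif1 peak and the peak at chr17:70853102-70853454 also lay within 1 kb of Gm36856. This neighbour too was named after its values were seen.

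By the strongest peak of each gene the order was Smad7 (6.30), Tgif1 (5.03), Smad3 (4.95), Skil (4.93), Smad6 (4.53), Smad2 (4.03) and Smad1 (3.51). The intervals of every pair of neighbours in this order overlapped. Such overlap does not decide whether 2 folds differ, and the order was not tested. At the ends of the order, the interval of Smad1 reached 4.89 and that of Smad7 began at 4.83. Their pileups were 33 and 60 fragments over the same expected 8.68. The Smad7 value is the strongest of 7 peaks, whereas Smad1 had 1. The median fold was 3.77 over the 4 receptor-regulated peaks, 3.41 over the 11 inhibitory peaks and 3.56 over the 10 repressor peaks. It was 3.51 over all 25 and 3.72 over the whole list. For 21 of the 25 peaks the interval included that list median, and the 4 above it were 3 at Smad7 and the strongest of Tgif1. A fold of at least 5 was reached at 2 of the 10 genes and at 5.21% of all genes, and a -log10 q of at least 10 at 5 of the 10 and at 16.0% of all.

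**Figure D3:**
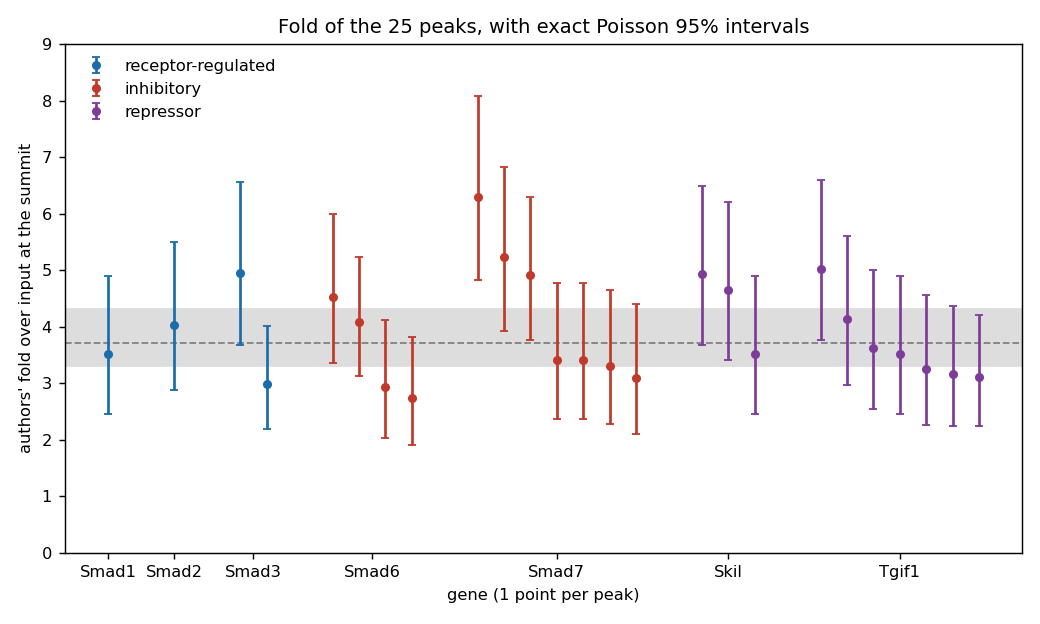
Fold over input of the 25 peaks, 1 point per peak, sorted within each gene and coloured by class. Bars are exact Poisson 95% intervals of the pileup, the dashed line is the median fold of the whole list (3.72) and the grey band runs between its quartiles (3.30 and 4.32). Most bars cross the dashed line, and those of the 3 strongest Smad7 peaks and the strongest Tgif1 peak lie above it.

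The depth behind these peaks was modest, as in the whole list. Pileups at the 25 summits ran from 29 to 60 fragments with a median of 38, equal to the median of 38 over all peaks. The expected input level was above the genome background of 8.68 by 0.001 or more at 14 of the 25 peaks (56.0%), beside 52.8% of all peaks, and its part in the folds was not tested. At 2 of the 14, the strongest Smad3 peak and the Smad7 peak with a fold of 3.10, it was above by less than 0.01. The authors' -log10 q ran from 4.25 to 25.3 (list median 8.47). All 25 peaks lay within 1431 bp of a member gene or inside it, and the next peaks outward were at least 19.7 kb from one. Between 10 and 50 kb there were 6 further peaks, 2 each near Smad7 and Skil and 1 each near Smad3 and Smad9, with folds from 2.87 to 4.47. The peak 43.9 kb from Smad3 lay at the ends of Iqch and Aagab.

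A peak within 1 kb of a start site, or of either gene end where no start site was given, was present at 6 of the 10 genes and at 23.2% of all protein-coding genes. The 6 were Smad1, Smad3, Smad6, Smad7, Skil and Tgif1. The peak of Smad2 lay just beyond this distance. Start sites with strand were available for 6 members, Smad1, Smad3, Smad5, Smad6, Smad9 and Tgif1, and these have 14 of the peaks. Of those 14 summits, 10 lay within 1 kb of a start site, 8 of them downstream and 2 upstream. Of the 8070 peaks on chromosomes with listed start sites, 4894 (60.6%) had their summit within 1 kb of one, 73.9% of them downstream, with a median position of 185 bp into the gene. The member summits thus lay mostly on the side where most summits of the list lay. The 2 were measured differently, from the member's own start sites and, for the list, from the nearest start site of any gene. Tgif1 has 5 listed start sites over 6755 bp, so its summits could hardly lie far from one.

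**Figure D4:**
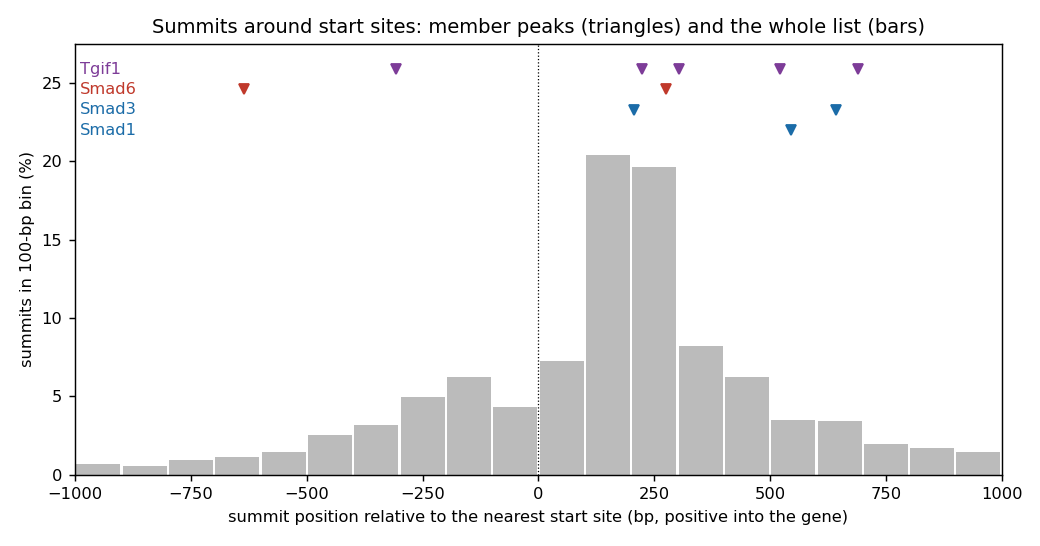
Summits within 1 kb of a start site: the horizontal axis is the position relative to the nearest start site in bp, positive into the gene. Triangles are the 10 member summits by gene, measured from the gene's own start sites. Bars give the percentage of the 4894 such summits of the list in each bin, measured from the nearest start site of any gene. Of the triangles, 8 lie to the right of 0 and 2 to the left, 1 each of Smad6 and Tgif1.

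Promoter sequence was compared between members with and without peaks, because the start sites of Smad5 and Smad9 had none nearby while those of Smad3, Smad6, Smad1 and Tgif1 did. RefSeq windows of 300 bases around a start site (GRCm38.p6, the assembly of mm10) were given for the same 6 genes, 12 start sites in all. The stretches below are the part of 5 of them that lies outside the annotated gene, read 5′ to 3′ on the gene's strand. They are from the inhibitory Smad6 (chr9:64022086-64022309, minus strand), the receptor-regulated Smad3 (chr9:63757995-63758244, minus), the repressor Tgif1 (chr17:70853533-70853782, minus), and the peak-free Smad5 (chr13:56702760-56703009, plus) and Smad9 (chr3:54755332-54755454, plus). Capitals mark the GC box GGGCGG or its reverse complement. The Tgif1 stretch has none.
Smad6: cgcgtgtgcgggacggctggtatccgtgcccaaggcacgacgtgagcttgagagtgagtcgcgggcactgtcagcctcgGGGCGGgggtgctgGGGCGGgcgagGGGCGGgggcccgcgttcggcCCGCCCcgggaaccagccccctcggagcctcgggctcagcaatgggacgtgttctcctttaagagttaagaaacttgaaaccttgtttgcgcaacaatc
Smad3: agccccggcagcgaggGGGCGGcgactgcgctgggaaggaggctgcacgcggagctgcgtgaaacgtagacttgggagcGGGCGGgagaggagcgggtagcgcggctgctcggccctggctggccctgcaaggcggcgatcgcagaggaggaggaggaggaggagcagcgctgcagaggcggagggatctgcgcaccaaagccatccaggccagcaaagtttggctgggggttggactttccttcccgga
Tgif1: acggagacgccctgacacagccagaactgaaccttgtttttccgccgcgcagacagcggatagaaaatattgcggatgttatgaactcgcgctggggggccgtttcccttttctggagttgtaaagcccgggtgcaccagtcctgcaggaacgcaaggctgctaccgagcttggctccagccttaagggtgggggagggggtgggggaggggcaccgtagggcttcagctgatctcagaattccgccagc
Smad5: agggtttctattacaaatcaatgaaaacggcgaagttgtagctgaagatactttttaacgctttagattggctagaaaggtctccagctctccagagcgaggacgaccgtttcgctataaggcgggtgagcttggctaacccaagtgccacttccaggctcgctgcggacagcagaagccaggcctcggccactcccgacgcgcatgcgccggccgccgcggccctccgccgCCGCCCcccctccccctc
Smad9: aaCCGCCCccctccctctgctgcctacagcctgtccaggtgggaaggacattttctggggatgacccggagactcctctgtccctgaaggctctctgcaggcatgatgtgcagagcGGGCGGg

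GC-rich sequence was common to members with and without peaks. The 300-base windows held 65.0% G and C at Smad1, 67.7% at Smad3 and 66.3% at Smad6, all with a peak within 1 kb. They held 73.7% at Smad9 and 63.0, 67.0 and 68.0% at the 3 start sites of Smad5, which had none. The median of all 32851 windows was 52.7% (quartiles 45.7 and 61.7%). CpG dinucleotides numbered 31 at Smad1, 25 at Smad3 and 31 at Smad6, against 31 at Smad9 and 31 to 36 at Smad5, with a median of 7 over all windows. The Tgif1 windows were more varied, from 37.3% G and C with 2 CpG at the innermost start site to 68.7% with 23. A GC box lay in 9 of the 12 windows and in all 6 genes, beside 35.7% of all windows, and windows of 1 gene can share bases.

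Of the 12 windows 2 overlapped a peak, both at inner start sites of Tgif1, beside 8.97% of all windows. Of the 12 start sites 8 had a peak within 1 kb, beside 17.5% of all, and 5 of the 8 belong to Tgif1.

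Letters bound by Smad proteins were searched on both strands of the same windows. The palindrome GTCTAGAC, to which the DNA-binding domain of Smad3 and Smad4 binds, was found in 1 of the 12 windows and in 0.213% of all. It spans the start site of Smad6, from base -4 to base 4, and is shown in capitals in 30 bases at chr9:64022045-64022074 on the minus strand. The shorter Smad box CAGAC was found in 4 of the 12 windows, 3 of Tgif1 and 1 of Smad5, and in 49.6% of all. In the Tgif1 window at start site 70851734, a CAGAC from base -191 to base -187 lies within the peak at chr17:70851854-70852175 (fold 3.25, 2.26 to 4.55). It is shown in 30 bases at chr17:70851908-70851937 on the minus strand. The other 3 CAGAC of the Tgif1 windows, 1 of them in the same window from base -59 to base -55, lie in no peak, nor do that of Smad5 and the Smad6 palindrome.
Smad6 start: gccgccaaagtGTCTAGACtggcatatgat
Tgif1 inner start: gtccccctagccCAGACgtttaaagagcat

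The remaining motifs were each found in at most 2 of the 6 genes. GGCGCC was found in 3 windows, of Smad5 and Smad9, and in 11.9% of all. TGTCA, the core of TGIF sites, was in 5, of Smad6 and Tgif1, and in 45.4% of all. CCGGAA, an ETS core, was in 2 windows of Tgif1 and in 14.9% of all. The AP-1 motif TGANTCA and the cyclic AMP element TGACGTCA were in 0 of the 12, beside 7.81 and 1.79% of all. GGGCGG and GGCGCC can share bases, and none of the motifs contains another. A match is a description of letters and not a site bound in these cells.

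The other genes of the pathway gave a wider view of the same list. Of 49 further TGF-beta and BMP genes, 33 (67.3%) had a peak by the same rule, beside 31.7% of all genes, and the members stood at 70.0%. The median number of peaks per gene was 1.5 over the members, 1 over the 49 and 0 over all genes. Of the ligand genes 4 of 9 had a peak, the strongest at Inhba, the activin subunit (3.92, 2.79 to 5.37), Tgfb2 (3.77) and Bmp7 (3.61). Of the receptor genes 7 of 11 had one, led by the type I receptor gene Acvr1 (5.37, 4.02 to 7.03), the BMP type II receptor gene Bmpr2 (4.96) and Bmpr1a (4.23).

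Extracellular inhibitors had a peak at 4 of 7 genes, each with 1 peak, led by the BMP antagonist gene Grem1 (3.72), the latent TGF-beta binding protein gene Ltbp1 (3.51) and the noggin gene Nog (3.30). Intracellular regulators had one at 5 of 7, led by the Smad phosphatase gene Ppm1a (5.68, 4.29 to 7.38), the TGF-beta feedback gene Pmepa1 (4.86) and the ubiquitin ligase gene Nedd4l (3.68). Pmepa1 had 6 peaks. Nuclear repressors and partners of Smads had a peak at 7 of 8, led by Zeb2 (5.58, 4.33 to 7.09), which had 7 peaks as did Smad7 and Tgif1, Ncor1 (4.54) and the coactivator gene Ep300 (4.44). Ski, the close relative of Skil, had 6 peaks up to 3.80, and Tgif2 had 1 of 3.35. Well-known target genes had a peak at 6 of 7, led by Ccn2 (6.82, 5.28 to 8.66), Id2 (5.27) and Id3 (4.96), and Id1 had 0. Of the 49 pathway genes, 2 had at least 7 peaks, Zeb2 and the target gene Msx1, which had 9. Ski, Tgif2, Id1 and Msx1 were named after their values were seen. Differences between these groups were not tested.

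**Figure D5:**
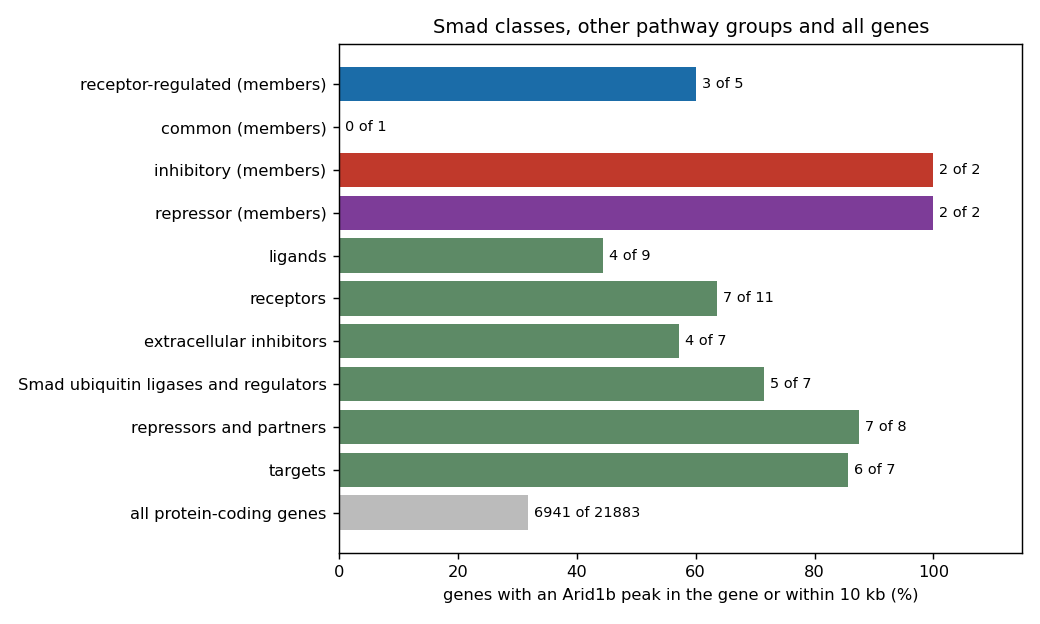
Percentage of genes with an Arid1b peak inside or in the 10 kb flanks, for the 4 classes of members, 6 groups of other TGF-beta and BMP genes and all protein-coding genes (6941 of 21883), with the counts beside the bars. Both inhibitory Smads and both repressors have a peak, as do 7 of 8 other repressors and partners and 4 of 9 ligands.

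Marker genes of the labelled cell type carried peaks. Of 12 dental mesenchyme genes 11 had one by the same rule, Lhx6 being the one without, beside 31.7% of all protein-coding genes. At least 7 peaks, as at Smad7 and Tgif1, were present at 5 of the 12, beside 0.452% of all genes. The median over the 12 was 6 peaks per gene. Dlx1 and Dlx2 had the same strongest fold, 7.95, and their windows overlap, so a peak can count for both. Msx1 and Msx2 were also counted among the target genes. The dental epithelium genes (6) and endothelium genes (4) had 0. Blood and immune genes had 1 of 5, at Cd68, and neuron and glia genes 1 of 5, at Mbp. These groups are small, and differences between them or from all genes were not tested. A peak of Arid1b is not a measure of expression.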

How the data were processed

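One Arid1b ChIP library and 1 input library were compared by the authors, whose deposited narrow peak list has no header. The submitters' processing notes name FastQC 0.11.8, Bowtie2 2.2.5, Picard, MACS2 2.1.1 and mm10 but no settings. Read totals and read filters are not stated. For each peak the list gives the authors' summit fold over input, a linear ratio, their -log10 p and -log10 q, a score that was not used, and the summit's offset from the peak start.

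From these, the whole pileup and the expected input level at each summit were solved, with 1 added to both in the fold and p read as the upper Poisson tail beyond the pileup. This gave whole pileups within 0.001 in -log10 p for 100% of peaks, and the step was checked on simulated data. An expected level within 0.001 of the lowest, most frequent value counted as genome background. Intervals are exact Poisson 95% intervals of the pileup at a fixed expected level and cover counting error only.

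A peak counted for a gene when any base lay in the gene or within 10 kb, using RefSeq GRCm38.p6 coordinates, 1-based. Start sites, strands and sequences came from RefSeq promoter windows, which reach from 250 bases before to 50 after a start site and were given for 17491 of the protein-coding genes. Exons and introns were not used here, nor were protein sequences, so a planned comparison of proteins was not made. Positions from a start site are counted from 1 at the start site and from -1 before it.

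The members, gene lists, motifs and alternatives were chosen with earlier results of these data known. All members and their peaks are named, with up to 3 genes by strongest peak from each other pathway group. Neighbouring genes were also named. Python 3.11.15, numpy 2.4.6, pandas 2.3.3 and scipy 1.17.1 were used.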

Additional observations from a re-analysis of the deposited data

How the results depend on the processing

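Of 127 alternative values, 106 stayed within their interval (or, for counts, within 1.5 times) and 21 moved. Some of the 106 could not move, such as the 0 peaks at Smad4 under stricter filters, so the tally does not measure stability. A gene left without a peak gave no strongest fold and was not counted as moved there. For the median fold, the interval used was that of the member peak nearest to it (2.45 to 4.89), which is wide. With -log10 q of at least 10, there were 10 peaks in place of 25, at 5 of the 10 genes (16.0% of all genes), with 1 at 1 receptor-regulated gene, 5 at the inhibitory and 4 at the repressor genes. With a fold of at least 5 there were 3 peaks at 2 genes, 2 at Smad7 (1 of 2 inhibitory genes) and 1 at Tgif1 (1 of 2 repressors), and 0 at 0 receptor-regulated genes. Over peaks whose expected input level was the genome background there were 11. Of these, 2 were at receptor-regulated genes, 4 at 1 inhibitory gene (Smad7) and 5 at repressor genes. This left out the 4 Smad6 peaks and the 2 Smad3 peaks. Also left out were both wide Smad7 peaks and its peak of 3.10, and several repressor peaks, the strongest of Skil and of Tgif1 among them. The strongest fold was then 4.65 at Skil and 4.13 at Tgif1, and it stayed 6.30 at Smad7. The strongest Smad3 peak was left out by less than 0.01 in expected level. Merging peaks closer than 500 bp left 12, with 5 at inhibitory and 4 at repressor genes. Windows of 1, 5 and 50 kb, the summit rule and -log10 q of at least 5 moved none of these counts by over 1.5 times. Strongest folds were computed anew only for windows of 1 and 50 kb, peaks at genome background and folds without the added 1. None of those computed left its interval. The count of 6 genes with a peak by a start site or end was also within 1.5 times under every alternative, 1 of which, either annotated end for all members, was chosen after seeing the data. No paired analysis was possible because each group has 1 library. Depth limits every comparison of single peaks, and no result here has a replicate.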
